A study of Homo sapiens with 8 samples.

Results

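Transcripts of the MHC class I antigen presentation pathway were followed in 2 human acute myeloid leukaemia cell lines after knockdown of ALKBH5. The pathway set was named by gene symbol, with earlier results of these data known, and holds 9 genes: HLA-B, HLA-C, HLA-E, HLA-F, B2M, TAP1, TAP2, TAPBP and NLRC5. Of these, 5 were rows of the expression table of 26830 gene symbols: HLA-C, HLA-E, B2M, TAP1 and NLRC5. The other 4 named genes, HLA-B, HLA-F, TAP2 and TAPBP, were not analysed here. All 5 measured genes passed the filter of at least 1 TPM in at least 2 libraries, as did 14302 genes in all.

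A class I molecule is a heavy chain, encoded by HLA-C or HLA-E among the genes here, paired with the light chain beta-2 microglobulin, the product of B2M. Peptides cut by the proteasome are pumped into the endoplasmic reticulum by the transporter made of TAP1 and TAP2. Chaperones and the editor tapasin hold the empty molecule there until a peptide fits. HLA-C is a classical class I gene whose product presents peptides to CD8 T cells and is a ligand of killer immunoglobulin-like receptors, while HLA-E presents mostly leader peptides of other class I molecules to the receptor NKG2A on natural killer cells. NLRC5 is a transactivator that is recruited to class I, B2M and TAP1 promoters, and interferon-gamma raises the whole set, in part through IRF1. On leukaemia cells the amount of class I decides what T cells and natural killer cells can see.

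The study measured poly(A) RNA in NOMO-1 and MOLM-13, both monocytic lines that carry a KMT2A fusion. ALKBH5 is a demethylase that removes N6-methyladenosine, a methyl mark, from RNA. There were 4 groups of 2 libraries: NOMO-1 with the lentiviral short hairpin shALKBH5-#1 (replicates 2 and 3), NOMO-1 with the non-targeting hairpin shNS (replicates 1 and 3), MOLM-13 with shALKBH5-#1 (replicates 1 and 3) and MOLM-13 with shNS (replicates 1 and 3). All groups were grown in RPMI1640 with serum, carried a virus and were selected with puromycin, for 4 days in the series text and 1 week in the sample protocols. The protocols also name a virus against FTO and drug treatments, which no sample label lists. A single hairpin per target was used, so its effect and that of ALKBH5 loss cannot be told apart. The labels do not say whether replicates are separate cultures. The p-values therefore describe variation among the sequenced libraries, which could be technical.

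ALKBH5 itself stood at 15.11 and 14.15 TPM in NOMO-1 shALKBH5 libraries, against 70.44 and 71.81 TPM in NOMO-1 shNS libraries. In MOLM-13 it stood at 9.45 and 7.35 TPM in shALKBH5 libraries, against 45.69 and 45.79 TPM in shNS libraries. TPM is a transcript's share of its library after scaling by transcript length, and it keeps no depth. The knockdown groups did not overlap their controls, and ALKBH5 fell by 2.21 on the log2 scale in NOMO-1 (limma adjusted p = 0.00032) and by 2.32 in MOLM-13 (adjusted p = 0.00019). The MOLM-13 shALKBH5 libraries stood apart from each other: the SD of the log2 difference between the 2 libraries of a group, over genes, was 0.526 there, against 0.133 in MOLM-13 shNS, 0.184 in NOMO-1 shALKBH5 and 0.153 in NOMO-1 shNS. They also held more of 6 structural RNAs that lack a poly(A) tail. RN7SK, the RNA of a transcription-pausing complex, was at 1283.52 and 2747.10 TPM in MOLM-13 shALKBH5 libraries, against 74.30 and 61.01 TPM in MOLM-13 shNS libraries. All 6 of these RNAs rose in MOLM-13 and none passed the threshold in NOMO-1. RNA5-8S5, the highest of the 6 in the MOLM-13 shALKBH5 libraries, was at 1620.54 and 4045.71 TPM there, where all TPM of a library sum to 1e+06. Since TPM is a share, such RNA lowers the TPM of every other transcript in a library, to the extent of its own share. The part of these 6 RNAs in the results below was not tested. Of 10 myeloid markers, 9 were at 1 TPM or more in every NOMO-1 library and 10 in every MOLM-13 library, with MPO, the neutrophil granule peroxidase, below 1 TPM in NOMO-1. Summed TPM of the myeloid markers was 3358.6 to 3392.41 in NOMO-1 shALKBH5 and 1493.08 to 1524.15 in NOMO-1 shNS, and 13368.83 to 20788.37 in MOLM-13 shALKBH5 and 10024.27 to 10575.59 in MOLM-13 shNS. LYZ, which encodes lysozyme, and CD68 carried most of the NOMO-1 gap, and not every marker followed the sum. In NOMO-1, CD33 was at 69.11 and 65.31 TPM in shALKBH5 libraries, against 82.53 and 82.45 TPM in shNS libraries, and CEBPA and SPI1 were also below their controls in both. In MOLM-13, MPO was at 19.32 and 16.41 TPM in shALKBH5 libraries, against 384.01 and 456.50 TPM in shNS libraries, and ITGAM and PTPRC were also below their controls in both. The part of these markers in the results was not tested.

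The promoters are shown first because the class I genes and their partners are known to share control elements there. RefSeq's table (GRCh38.p14) held an entry for 3 of the 5 genes, with 2 entries for TAP1. The 250 bases before the start are printed 5′ to 3′ on the gene's own strand, for HLA-C at chr6:31272093-31272342 (minus strand), for B2M at chr15:44711267-44711516 (plus strand) and for the first entry of TAP1 at chr6:32853705-32853954 (minus strand). Capitals mark letters that matched one of 4 motifs on either strand: AANNGAAA, the core bound by interferon regulatory factors, the NF-kB form, which is GGG and CC with any 5 bases between them, TGACG, a short core bound by CREB and ATF factors, and CCAAT, the box bound by NF-Y.
HLA-C promoter: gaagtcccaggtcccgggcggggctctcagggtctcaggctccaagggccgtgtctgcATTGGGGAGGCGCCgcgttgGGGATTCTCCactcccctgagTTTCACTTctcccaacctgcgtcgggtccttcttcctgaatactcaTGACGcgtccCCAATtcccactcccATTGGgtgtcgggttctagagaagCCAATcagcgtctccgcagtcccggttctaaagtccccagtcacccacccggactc
B2M promoter: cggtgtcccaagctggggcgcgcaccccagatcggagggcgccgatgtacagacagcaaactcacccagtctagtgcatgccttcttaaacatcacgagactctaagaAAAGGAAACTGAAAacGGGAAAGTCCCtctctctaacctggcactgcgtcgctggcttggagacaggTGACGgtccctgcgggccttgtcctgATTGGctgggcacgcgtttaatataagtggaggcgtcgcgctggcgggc
TAP1 promoter: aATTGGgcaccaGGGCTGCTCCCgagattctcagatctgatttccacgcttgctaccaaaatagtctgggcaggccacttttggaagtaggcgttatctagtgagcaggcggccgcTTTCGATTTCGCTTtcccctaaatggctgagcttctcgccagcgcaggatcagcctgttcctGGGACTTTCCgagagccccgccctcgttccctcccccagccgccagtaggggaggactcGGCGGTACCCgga
The HLA-C and B2M windows held all 4 kinds of motif. The first TAP1 window held an interferon regulatory factor core, NF-kB forms and a CCAAT box but no TGACG, and the second TAP1 window held NF-kB forms only. Among 35116 promoter windows of the same length, 20.3% held AANNGAAA, 54.4% the NF-kB form, 21.2% TGACG and 32.0% CCAAT. Some matches overlap: 2 matches of AANNGAAA share letters in B2M and 2 in TAP1, the NF-kB form matched both strands at nearly the same letters in B2M and TAP1, and a CCAAT box and an NF-kB form share letters in HLA-C. In HLA-C the AANNGAAA match began 151 bases before the start and the TGACG match 105 bases before it. In B2M the AANNGAAA matches began 142 and 136 bases before the start and in TAP1 134 and 128 bases before it. These are matches of letters and not measured binding.

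In the GENCODE 29 annotation of GRCh38, HLA-E lies at chr6:30489467-30494205 (plus strand), HLA-C at chr6:31268749-31272130 (minus strand) and TAP1 at chr6:32845209-32853978 (minus strand). All 3 are in the major histocompatibility complex, with 774.5 kb between HLA-E and HLA-C and 1573.1 kb between HLA-C and TAP1. B2M lies outside it at chr15:44711487-44718877 (plus strand), and NLRC5 at chr16:56989485-57083531 (plus strand). The promoter windows above were counted from RefSeq starts, which differ from the gene ends given here. Both TAP1 windows lie inside the TAP1 gene of this annotation, and those of HLA-C and B2M partly overlap their genes. Class I heavy chain genes resemble each other, which bears on how reads are assigned. In the reference transcripts, 5.38% of the 50-base words of HLA-C were shared with transcripts of 7 other genes and 4.34% of those of HLA-E with 11 other genes. For TAP1 the share was 0.88%, and none were shared for B2M and NLRC5. These lines carry their own HLA alleles, so the values of HLA-C and HLA-E are uncertain to the extent that reads were split between heavy chain genes.

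B2M had the highest level of the 5 genes in every one of the 8 libraries, followed by HLA-C, HLA-E, TAP1 and NLRC5, and within each group no neighbours in that order overlapped. In the control libraries the lines differed most for the light chain and HLA-C. B2M was at 4094.56 and 4171.02 TPM in NOMO-1 shNS libraries, against 1238.92 and 1256.08 TPM in MOLM-13 shNS libraries, a ratio of means of 3.31. HLA-C was at 817.89 and 834.30 TPM in NOMO-1 shNS, against 273.82 and 291.40 TPM in MOLM-13 shNS, a ratio of 2.92. Both were higher in NOMO-1, by 1.73 (SE 0.37) for B2M (limma adjusted p = 0.0074) and by 1.54 (SE 0.12) for HLA-C (adjusted p = 8.7e-05) on the log2(TPM + 1) scale used for all fold changes here. These were 2 of the 5 genes past the threshold of adjusted p below 0.05, in a comparison that called 59.8% of all genes tested and 40.6% as higher in NOMO-1. In rank, B2M was number 10 or 11 among the genes tested in every NOMO-1 library and between number 90 and number 147 in the MOLM-13 libraries.

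The other 3 genes did not pass the threshold between the lines. TAP1 was at 38.19 and 42.45 TPM in NOMO-1 shNS, against 19.17 and 18.21 TPM in MOLM-13 shNS, with no overlap and a log2 difference of 1.07 (95% interval 0.10 to 2.04, adjusted p = 0.058). HLA-E was at 179.16 and 179.52 TPM in NOMO-1 shNS, against 160.95 in both MOLM-13 shNS libraries, a log2 difference of 0.16 (interval -0.31 to 0.62, adjusted p = 0.51). The sign for HLA-E turned to -0.15 under median-of-ratios scaling, which sets the typical gene equal between libraries. NLRC5 was at 12.80 and 13.00 TPM in NOMO-1 shNS, against 13.06 and 14.21 TPM in MOLM-13 shNS, a log2 difference of -0.07 (interval -0.73 to 0.59, adjusted p = 0.84). The ratio of means between the lines was 0.946 for NLRC5 and 1.11 for HLA-E, and 2.16 for TAP1. Of all genes tested, 57.9% were higher in NOMO-1 shNS than in MOLM-13 shNS without overlap, as were HLA-C, HLA-E, B2M and TAP1.

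**Figure D1:**
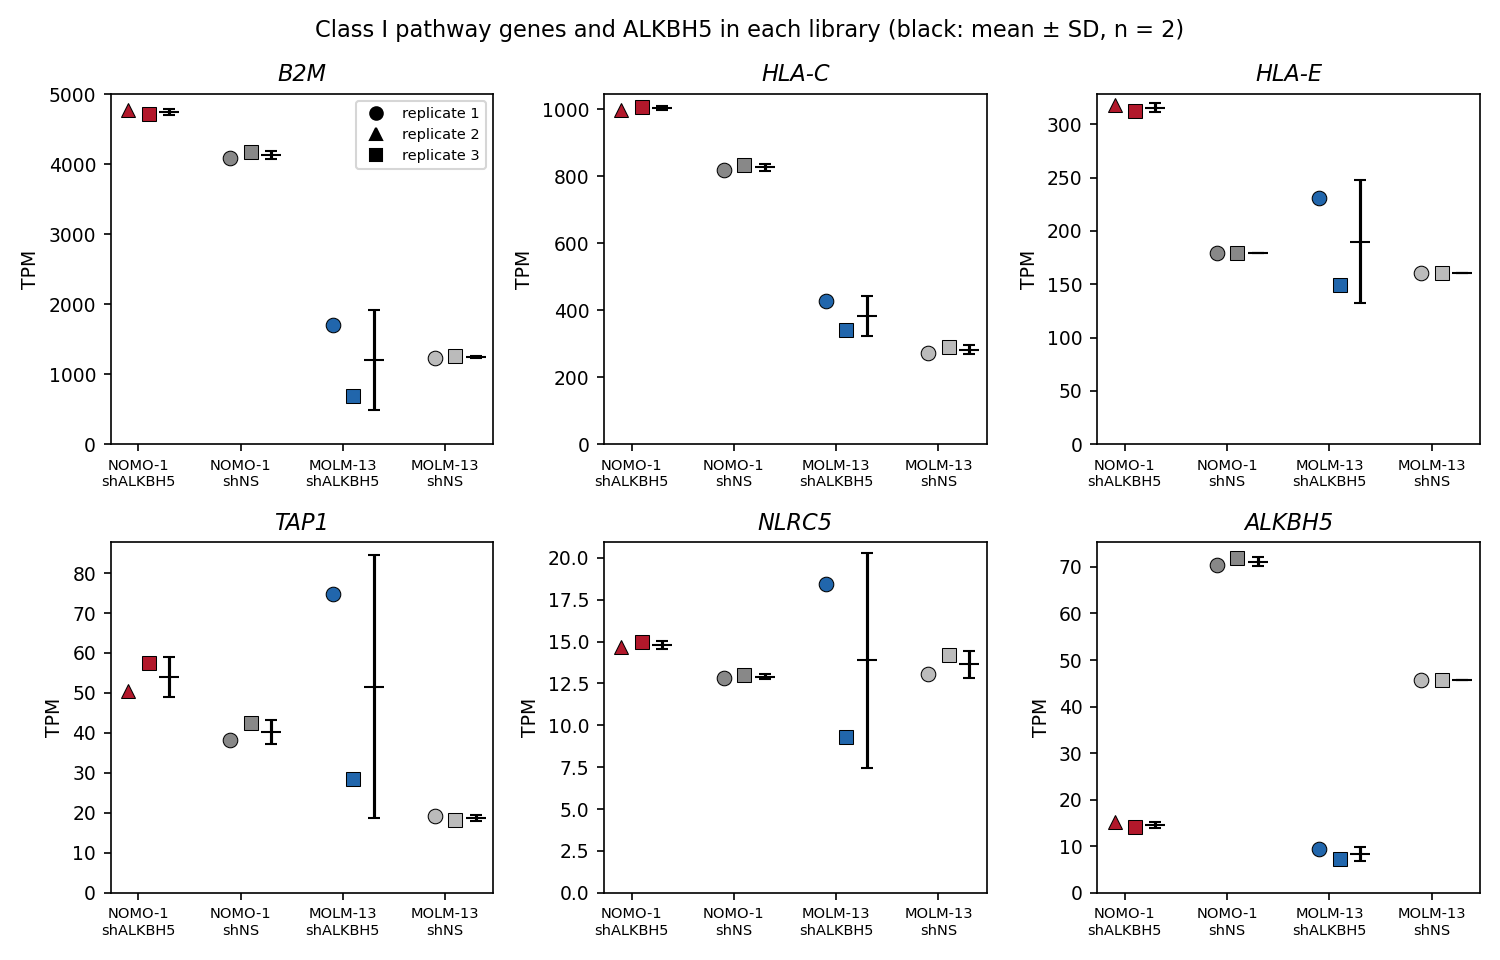
TPM of the 5 class I pathway genes and ALKBH5 in each library (y axis, linear, from 0), by group; symbols mark the replicate number and black marks the mean ± SD of 2 libraries. The NOMO-1 shALKBH5 libraries lie above the NOMO-1 shNS libraries for all 5 pathway genes, while the 2 MOLM-13 shALKBH5 libraries lie far apart.

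In NOMO-1, all 5 genes had higher TPM in both shALKBH5 libraries than in either shNS library, and the largest difference was that of HLA-E. HLA-E was at 318.30 and 312.37 TPM in shALKBH5 libraries, against 179.16 and 179.52 TPM in shNS libraries, a ratio of means of 1.76. It rose by 0.81 on the log2 scale (SE 0.19, 95% interval 0.35 to 1.28, limma adjusted p = 0.016) and was the only 1 of the 5 genes past the threshold, in a comparison that called 43.6% of all genes and 28.6% as higher. More cells with a transcript and more of it per cell cannot be told apart in such bulk RNA. Without any one of the 4 NOMO-1 libraries the adjusted p of HLA-E was 0.075 to 0.087, with log2 fold changes of 0.80 to 0.82. With the NOMO-1 libraries fitted alone it was 0.0011.

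HLA-C was at 998.05 and 1007.68 TPM in NOMO-1 shALKBH5, against 817.89 and 834.30 TPM in NOMO-1 shNS, and its log2 fold change was 0.28 (interval -0.01 to 0.57, adjusted p = 0.11). B2M was at 4782.20 and 4715.10 TPM in shALKBH5, against 4094.56 and 4171.02 TPM in shNS, with a log2 fold change of 0.20 (interval -0.70 to 1.10, adjusted p = 0.71). TAP1 was at 50.44 and 57.59 TPM in shALKBH5, against 38.19 and 42.45 TPM in shNS, with a log2 fold change of 0.41 (interval -0.56 to 1.38, adjusted p = 0.45). All 3 were above their controls without overlap, and none passed the threshold. NLRC5 was at 14.65 and 14.97 TPM in shALKBH5, against 12.80 and 13.00 TPM in shNS, likewise without overlap, with a log2 fold change of 0.19 (interval -0.48 to 0.85, adjusted p = 0.63). Of all genes tested, 52.1% lay above their controls without overlap in NOMO-1.

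The number of calls in NOMO-1 depended on the MOLM-13 shALKBH5 libraries, because all 4 groups enter a gene's single estimate of spread. Leaving out replicate 1 or replicate 3 of MOLM-13 shALKBH5 put all 5 genes past the threshold in NOMO-1, and 9745 and 9739 genes in all in place of 6242. With the 4 NOMO-1 libraries alone, HLA-C (adjusted p = 0.0082), HLA-E (0.0011), TAP1 (0.033) and NLRC5 (0.048) passed, and B2M did not (0.17). Without any one of the 4 NOMO-1 libraries, none of the 5 passed, with 3490 to 3966 genes past the threshold.

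The size of these differences has to be read against the typical gene. The median log2 fold change over all genes tested was 0.16 in NOMO-1 and -0.18 in MOLM-13, and 65.6% of the NOMO-1 calls and 25.3% of the MOLM-13 calls were higher. Under median-of-ratios scaling these medians were 0.00 and 0.03, and the shares of higher calls 47.7% and 47.8%. HLA-E still rose in NOMO-1 there, by 0.59 (adjusted p = 0.0022), and under quantile scaling by 0.76. HLA-C had a log2 fold change of 0.06 (adjusted p = 0.49) under median-of-ratios scaling and 0.56 (adjusted p = 0.00034) under quantile scaling, and TAP1 had 0.20 and 0.28. B2M and NLRC5 were at the level of the typical gene, each with -0.02 under median-of-ratios scaling.

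In MOLM-13, HLA-C and TAP1 were above their controls in both shALKBH5 libraries, and the other 3 genes had 1 shALKBH5 library above and 1 below the controls. TAP1, the transporter subunit, was at 74.83 and 28.36 TPM in shALKBH5 libraries, against 19.17 and 18.21 TPM in shNS libraries, a ratio of means of 2.76. It rose by 1.26 on the log2 scale (SE 0.40, interval 0.29 to 2.23, limma adjusted p = 0.046). HLA-C was at 426.17 and 341.12 TPM in shALKBH5 libraries, against 273.82 and 291.40 TPM in shNS libraries, a ratio of 1.36. It rose by 0.43 (SE 0.12, interval 0.14 to 0.72, adjusted p = 0.03). These were 2 of the 5 genes past the threshold, where 41.8% of all genes passed and 10.6% as higher. The same 2 genes were those above their controls without overlap, where 21.3% of all genes were.

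Both calls were near the threshold. Without any one of the 4 NOMO-1 libraries, or of the 2 MOLM-13 shNS libraries, the adjusted p was 0.062 to 0.16 for HLA-C and 0.082 to 0.16 for TAP1. With the MOLM-13 libraries alone it was 0.15 and 0.18. Without shALKBH5 replicate 1 both passed, with log2 fold changes of 0.27 for HLA-C and 0.58 for TAP1, and without shALKBH5 replicate 3 both passed with 0.59 and 1.95. Relative to the typical gene both were larger, at 0.73 for HLA-C (adjusted p = 0.00042) and 1.55 for TAP1 (adjusted p = 0.0064) under median-of-ratios scaling.

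The other 3 genes split between the 2 MOLM-13 shALKBH5 libraries, replicate 1 being high and replicate 3 low for each. B2M was at 1705.73 and 695.12 TPM in shALKBH5 libraries, against 1238.92 and 1256.08 TPM in shNS libraries, with a log2 fold change of -0.20 (interval -1.10 to 0.71, adjusted p = 0.72). HLA-E was at 230.83 and 149.31 TPM in shALKBH5, against 160.95 TPM in both shNS libraries, with 0.20 (interval -0.26 to 0.67, adjusted p = 0.44). NLRC5 was at 18.42 and 9.33 TPM in shALKBH5, against 13.06 and 14.21 TPM in shNS, with -0.05 (interval -0.71 to 0.62, adjusted p = 0.92). With only replicate 1 as the knockdown, B2M had a log2 fold change of 0.45 (adjusted p = 0.0013), HLA-E 0.52 (0.00026) and NLRC5 0.41 (0.0055). With only replicate 3 they had -0.84 (8.9e-05), -0.11 (0.046) and -0.50 (0.0021), the lone library being assumed to vary like the other groups. For all 3 genes the sign of the fold change in MOLM-13 therefore turned on a single library. Under median-of-ratios scaling of both libraries HLA-E rose by 0.50 (adjusted p = 0.0046), while B2M had 0.10 (adjusted p = 0.80) and NLRC5 0.23 (adjusted p = 0.33).

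Library by library, the 5 genes lay above their controls together in 3 of the 4 knockdown libraries. Against the control mean of their line, the median of the 5 genes was 0.27 in NOMO-1 shALKBH5 replicate 2, 0.29 in NOMO-1 replicate 3, 0.52 in MOLM-13 replicate 1 and -0.11 in MOLM-13 replicate 3. The median of all genes tested was 0.14, 0.17, -0.06 and -0.33 in the same order. All 5 genes were above the control mean in the first 3 of these libraries, and 2 of 5 in MOLM-13 replicate 3, where 3 of 5 were above the median gene. TAP1 in MOLM-13 replicate 1 was the largest of the 20 differences, at 1.95, and B2M in MOLM-13 replicate 3 the lowest, at -0.84.

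**Figure D2:**
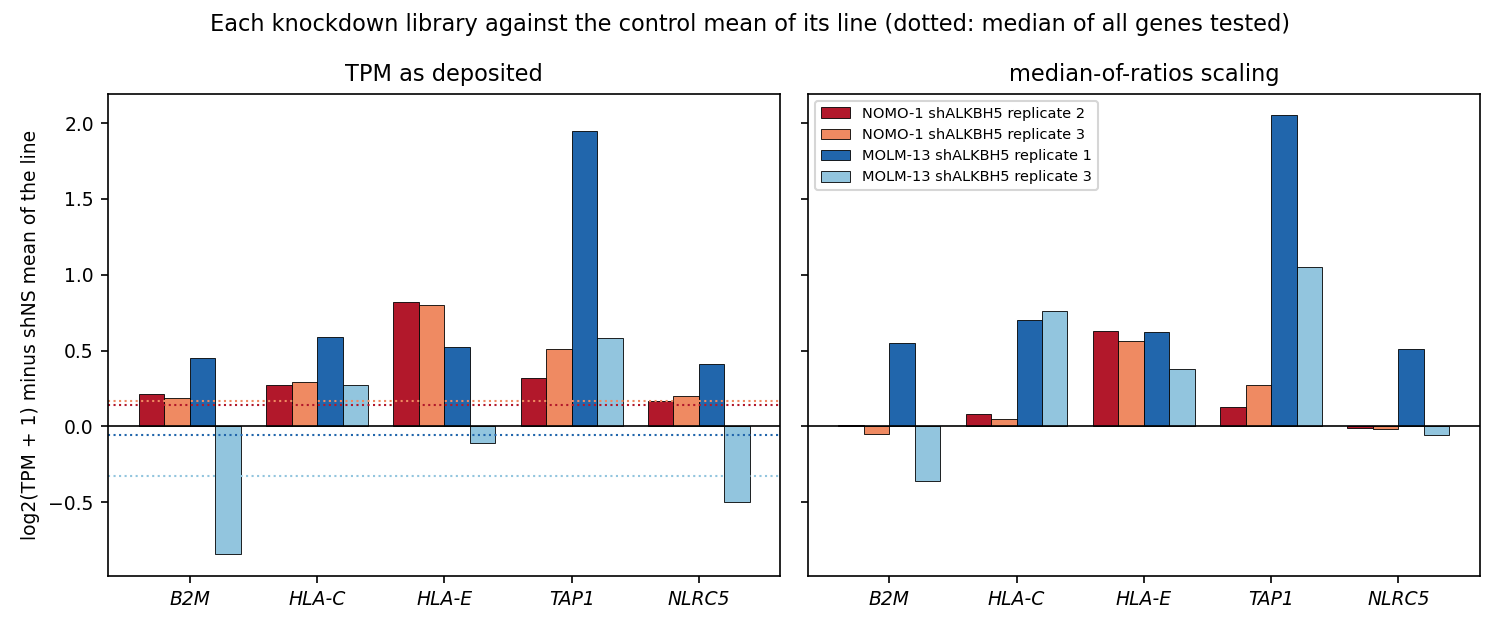
Log2(TPM + 1) of each knockdown library minus the mean of the shNS libraries of its line (y axis) for the 5 genes, with TPM as deposited (left; dotted lines give the median of all genes tested in each library) and after median-of-ratios scaling (right). HLA-C, HLA-E and TAP1 lie above 0 in all 4 libraries after scaling, B2M and NLRC5 do not.

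None of the 5 genes had a knockdown effect that differed between the lines past the threshold, where 34.6% of all genes did. At an unadjusted p under 0.05 limma also called 0 of the 5. The difference of effects, NOMO-1 minus MOLM-13, was 0.61 for HLA-E (interval -0.05 to 1.26, adjusted p = 0.13) and -0.85 for TAP1 (interval -2.22 to 0.52, adjusted p = 0.28). It was -0.15 for HLA-C (interval -0.56 to 0.26, adjusted p = 0.52), 0.40 for B2M (interval -0.88 to 1.67, adjusted p = 0.59) and 0.23 for NLRC5 (interval -0.70 to 1.17, adjusted p = 0.67). In this fit the calls of HLA-E in NOMO-1 and of TAP1 and HLA-C in MOLM-13 are therefore not shown to be particular to a line. The median difference over all genes was 0.42. Under median-of-ratios scaling 2 of the 5 genes passed, HLA-C and TAP1. Both had the larger rise in MOLM-13 by the scaled fold changes given above, so for these genes the answer depends on the scaling.

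Ratios of TPM between the genes of a single library do not depend on the scaling of that library, and they are given without a test. The light chain over HLA-C was 4.79 and 4.68 in NOMO-1 shALKBH5, against 5.01 and 5.0 in NOMO-1 shNS. It was 4.00 and 2.04 in MOLM-13 shALKBH5, against 4.52 and 4.31 in MOLM-13 shNS. B2M was thus lower per HLA-C transcript in every knockdown library, by little in NOMO-1 and most in MOLM-13 replicate 3. HLA-C over HLA-E was 3.14 and 3.23 in NOMO-1 shALKBH5, against 4.57 and 4.65 in NOMO-1 shNS, and 1.85 and 2.28 in MOLM-13 shALKBH5, against 1.70 and 1.81 in MOLM-13 shNS. The balance of the classical to the non-classical heavy chain was lower with the knockdown in NOMO-1 and higher in MOLM-13. TAP1 over B2M was 0.0105 and 0.0122 in NOMO-1 shALKBH5, against 0.00933 and 0.0102 in NOMO-1 shNS. In MOLM-13 it was 0.0439 and 0.0408 in shALKBH5 libraries, against 0.0155 and 0.0145 in shNS libraries. The 2 knockdown libraries lay far apart for TAP1 itself and close together with B2M, which was split likewise, as the denominator. With HLA-C as the denominator they stayed apart, at 0.176 and 0.0831, against 0.07 and 0.0625 in MOLM-13 shNS. TAP1 over HLA-C was 0.0505 and 0.0572 in NOMO-1 shALKBH5, against 0.0467 and 0.0509 in NOMO-1 shNS. The 5 genes together made up 0.616% and 0.611% of the TPM of NOMO-1 shALKBH5 libraries, against 0.514% and 0.524% in NOMO-1 shNS, and 0.246% and 0.122% in MOLM-13 shALKBH5, against 0.171% and 0.174% in MOLM-13 shNS.

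**Figure D3:**
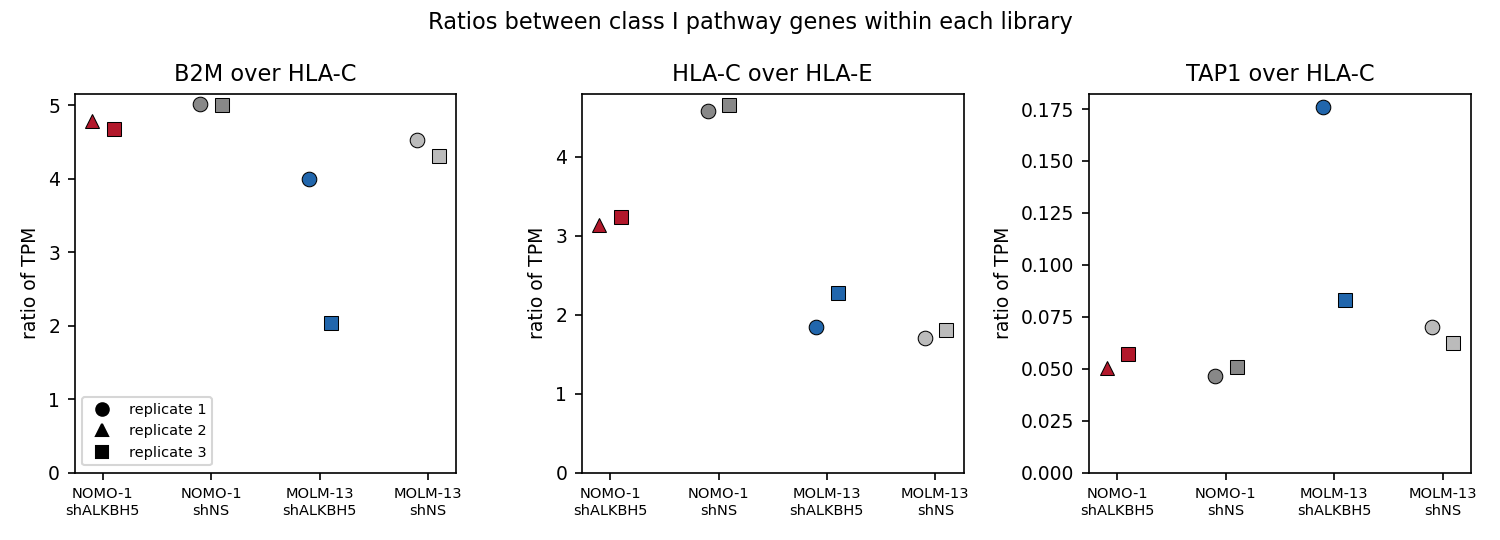
Ratios of TPM between pathway genes within each library (y axes, linear, from 0), by group; symbols mark the replicate number. B2M over HLA-C is lowest in MOLM-13 shALKBH5 replicate 3 at 2.04, and HLA-C over HLA-E is lower in NOMO-1 shALKBH5 than in NOMO-1 shNS.

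Peptides reach class I molecules through trimming enzymes and chaperones of the endoplasmic reticulum. A list of 10 genes around these steps was tested. It also holds the intramembrane proteases HM13, SPPL2A and SPPL3, so its counts are not those of trimming enzymes and chaperones alone. In NOMO-1, 4 rose and 1 fell, with a median log2 fold change of 0.21, against 0.16 over all genes, of which 28.6% rose and 15.0% fell. In MOLM-13, 1 rose and 4 fell, with a median of -0.20, against -0.18 over all genes, of which 10.6% rose and 31.2% fell. Under median-of-ratios scaling 3 rose and 2 fell in NOMO-1, and 3 rose and 4 fell in MOLM-13. With each line fitted alone, 5 rose and 1 fell in NOMO-1. In MOLM-13 alone, 0 rose and 2 fell, CALR and CANX. HSPA5, the chaperone BiP, was at 1235.79 and 1344.20 TPM in NOMO-1 shALKBH5, against 431.94 and 433.17 TPM in NOMO-1 shNS, and rose by 1.57 (limma adjusted p = 0.00032). HM13, the signal peptide peptidase that releases the leader peptides shown by HLA-E, was at 791.59 and 750.79 TPM in NOMO-1 shALKBH5, against 244.04 and 245.10 TPM in NOMO-1 shNS, and rose by 1.65 (adjusted p = 0.00033). ERAP1, the aminopeptidase that trims peptides to class I length, rose by 0.67 in NOMO-1 (adjusted p = 0.0043). In each of these 3 genes the knockdown libraries lay above the controls without overlap, and the call held without any one library.

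ERAP2, the second trimming aminopeptidase, fell in both lines, by 0.47 in NOMO-1 (adjusted p = 0.018) and by 0.83 in MOLM-13 (adjusted p = 0.0028). Its NOMO-1 call was lost without shNS replicate 3 or without either shALKBH5 replicate (adjusted p 0.065 to 0.13). In MOLM-13 the lectin chaperones CALR and CANX fell. CALR, calreticulin, was at 1081.38 and 1020.87 TPM in MOLM-13 shALKBH5, against 1775.18 and 1781.89 TPM in MOLM-13 shNS, and fell by 0.76 (adjusted p = 0.0017). CANX, calnexin, was at 216.20 and 208.76 TPM in MOLM-13 shALKBH5, against 444.51 and 439.03 TPM in MOLM-13 shNS, and fell by 1.05 (adjusted p = 0.00073). In NOMO-1 their log2 fold changes were 0.17 and 0.07, and the difference between the lines passed the threshold for both, at 0.92 for CALR (adjusted p = 0.0055) and 1.12 for CANX (adjusted p = 0.004). Over all genes the median difference was 0.42. Under median-of-ratios scaling the difference was 0.61 for CANX (adjusted p = 0.035), and for CALR it was 0.41 and did not pass (adjusted p = 0.13). SPPL3, a related intramembrane protease, fell by 0.61 in MOLM-13 (adjusted p = 0.032) and HSPA5 rose there by 0.30 (adjusted p = 0.038), and both calls were lost without any one NOMO-1 or MOLM-13 shNS library (adjusted p 0.06 to 0.17). Under median-of-ratios scaling the log2 fold changes in MOLM-13 were -0.46 for CALR, -0.76 for CANX, -0.56 for ERAP2, -0.33 for SPPL3 and 0.60 for HSPA5, all past the threshold. Without 1 library each, that of SPPL3 was -0.87 to -0.34. PDIA3, the disulphide isomerase of the loading complex, rose by 0.47 in NOMO-1 (adjusted p = 0.022). It was outside the rule for named genes and was chosen after its values were seen. Its call was lost without either shNS replicate or without shALKBH5 replicate 3 (adjusted p 0.087 to 0.13), and under median-of-ratios scaling, where the log2 fold change was 0.25 (adjusted p = 0.13).

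Of 6 listed genes of the immunoproteasome and the proteasome activators, 5 were tested and the other was not analysed here. Among the 5 tested, 0 rose and 1 fell in NOMO-1, where 28.6% of all genes rose and 15.0% fell. In MOLM-13, 1 rose and 1 fell, where 10.6% of all genes rose and 31.2% fell. PSME3, a nuclear activator subunit that is not one of the forms induced by interferon, was the gene that fell in both lines. It was at 58.61 and 59.89 TPM in NOMO-1 shALKBH5, against 131.08 and 128.60 TPM in NOMO-1 shNS, and fell by 1.12 (adjusted p = 0.0045). In MOLM-13 it was at 61.87 and 40.49 TPM in shALKBH5, against 108.66 and 110.26 TPM in shNS, and fell by 1.11 (adjusted p = 0.0053). With the MOLM-13 libraries fitted alone, 0 of the 5 passed, and PSME3 had a limma adjusted p of 0.071. PSMB8, an inducible catalytic subunit whose gene lies beside TAP1, was at 93.66 and 100.59 TPM in NOMO-1 shALKBH5, against 126.33 and 129.79 TPM in NOMO-1 shNS, with a log2 fold change of -0.40 that did not pass, and -0.61 that did under median-of-ratios scaling (adjusted p = 0.0072). In MOLM-13 it was at 112.76 and 66.04 TPM in shALKBH5, against 88.12 and 90.77 TPM in shNS, with -0.05. The third inducible subunit, PSMB10, rose by 0.28 in MOLM-13 (adjusted p = 0.046), a call that was lost without any one NOMO-1 or MOLM-13 shNS library (adjusted p 0.086 to 0.20). Under median-of-ratios scaling 0 rose and 4 fell in NOMO-1, and 3 rose and 1 fell in MOLM-13, PSMB10 by 0.58. Among the 3 constitutive counterparts, PSMB5 rose by 0.88 in NOMO-1 (adjusted p = 0.0011). PSMB7 fell by 0.73 in MOLM-13 (adjusted p = 0.0046), and by 0.44 under median-of-ratios scaling. Of these 3, 0 passed with the MOLM-13 libraries alone.

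Molecules with the class I fold that mostly present no peptide, and trafficking factors of class I, made a list of 8 genes, of which 7 were tested. In NOMO-1, 1 rose and 1 fell (median 0.13), where 28.6% of all genes rose and 15.0% fell. In MOLM-13, 3 rose and 0 fell (median 0.62), where 10.6% of all genes rose and 31.2% fell. With the MOLM-13 libraries alone 1 rose and 0 fell. The MOLM-13 shALKBH5 libraries differed, with a median of the list of 1.00 in replicate 1 and -0.01 in replicate 3. MR1, which shows microbial vitamin metabolites to MAIT cells, rose in both lines. It was at 50.29 and 49.48 TPM in NOMO-1 shALKBH5, against 15.55 and 14.06 TPM in NOMO-1 shNS, and rose by 1.69 (adjusted p = 0.00046). In MOLM-13 it was at 44.05 and 34.52 TPM in shALKBH5, against 19.41 and 18.95 TPM in shNS, and rose by 0.99 (adjusted p = 0.0025). Both MR1 calls held without any one library. FCGRT, the neonatal Fc receptor, which also pairs with B2M, was at 130.72 and 107.87 TPM in MOLM-13 shALKBH5, against 64.55 and 65.60 TPM in MOLM-13 shNS, and rose by 0.86 (adjusted p = 0.0021). PROCR, the endothelial protein C receptor, went opposite ways. It was at 26.58 and 28.51 TPM in NOMO-1 shALKBH5, against 43.15 and 42.88 TPM in NOMO-1 shNS, and fell by 0.63 (adjusted p = 0.017). In MOLM-13 it was at 36.72 and 27.52 TPM in shALKBH5, against 15.07 and 16.78 TPM in shNS, and rose by 0.96 (adjusted p = 0.004). The difference between the lines for PROCR was -1.58 (adjusted p = 0.0049), and the NOMO-1 call of PROCR was lost without any one NOMO-1 library (adjusted p 0.064 to 0.099).

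The measured ligands of NKG2D, the activating receptor that opposes inhibition through class I, were at 17.05 TPM or less in every library. Of 8 listed, 6 were rows of the expression table and 4 were tested. Those without a row were not analysed here, so the ligands as a class are not described. Of the 4 tested, 1 rose and 1 fell in NOMO-1, where 28.6% of all genes rose and 15.0% fell. In MOLM-13, 0 rose and 2 fell, where 10.6% of all genes rose and 31.2% fell, and 0 passed with the MOLM-13 libraries alone. ULBP2 was at 17.05 and 15.82 TPM in NOMO-1 shALKBH5, against 7.27 and 8.30 TPM in NOMO-1 shNS, and rose by 0.99 (adjusted p = 0.0029). ULBP1 was at 2.45 and 2.26 TPM in NOMO-1 shALKBH5, against 5.08 and 5.15 TPM in NOMO-1 shNS, and fell by 0.87 (adjusted p = 0.0075). Both NOMO-1 calls held without any one library, and the 2 ligands moved in opposite directions. In MOLM-13 ULBP1 fell by 0.53 (adjusted p = 0.044) and RAET1E by 0.64 (adjusted p = 0.036), from levels of at most 2.14 TPM in any MOLM-13 library. The call of ULBP1 was lost without any one NOMO-1 or MOLM-13 shNS library (adjusted p 0.076 to 0.17), and its log2 fold change was -0.76 to -0.30 without 1 library each. That of RAET1E was lost without any one NOMO-1 library, MOLM-13 shNS replicate 1 or MOLM-13 shALKBH5 replicate 3 (adjusted p 0.061 to 0.19).

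Factors of class I transcription were tested as a list of 24 genes of promoter binding and interferon signalling. The list also holds the class II transactivator CIITA and EZH2, which sets a repressive mark, so its counts are not those of activators alone. In NOMO-1, 5 rose and 4 fell (median 0.05), where 28.6% of all genes rose and 15.0% fell, and with the NOMO-1 libraries alone 11 rose and 7 fell. In MOLM-13, 1 rose and 6 fell (median -0.01), where 10.6% of all genes rose and 31.2% fell, and with the MOLM-13 libraries alone 1 rose and 1 fell. Of the knockdown libraries of MOLM-13, replicate 1 had a list median of 0.36 and replicate 3 one of -0.46. Under median-of-ratios scaling the counts were 6 rising and 8 falling in NOMO-1, and 8 rising and 5 falling in MOLM-13. IRF1 was at 11 and 12.35 TPM in NOMO-1 shALKBH5, against 8.54 and 8.78 TPM in NOMO-1 shNS, with a log2 fold change of 0.39 that did not pass. In MOLM-13 IRF1 was at 27.98 and 13.72 TPM in shALKBH5, against 11.08 and 11.53 TPM in shNS, above the controls in both libraries, with 0.75 that did not pass (adjusted p = 0.085). It passed under median-of-ratios scaling, with 1.03 (adjusted p = 0.006), and under quantile scaling, with 1.13 (adjusted p = 0.0027). STAT2, a transcription factor of the type I interferon response, was at 134.17 and 136.94 TPM in NOMO-1 shALKBH5, against 33.56 and 33.51 TPM in NOMO-1 shNS, and rose by 1.98 (adjusted p = 0.017). JAK2 rose by 1.17 (adjusted p = 0.013) and IFNGR1, a chain of the interferon-gamma receptor, by 0.82 (adjusted p = 0.021) in NOMO-1. These 3 calls were lost without any one NOMO-1 library (adjusted p 0.067 to 0.11). JAK1 fell, by 0.62 in NOMO-1 (limma adjusted p just below 0.05) and by 1.01 in MOLM-13 (adjusted p = 0.01). It was chosen after its values were seen. The NOMO-1 call of JAK1 was lost without any one NOMO-1 or MOLM-13 shNS library.

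CIITA, the class II transactivator and a relative of NLRC5, was the gene of this list with the largest change. It was at 17.11 and 9.19 TPM in MOLM-13 shALKBH5, against 1.11 and 1.15 TPM in MOLM-13 shNS, and rose by 2.67 (adjusted p = 0.00078), a call that held without any one library. In NOMO-1 CIITA was at 12.30 and 13.14 TPM in shALKBH5, against 6.37 and 6.76 TPM in shNS, and rose by 0.86 (adjusted p = 0.035). EZH2, the methyltransferase of the repressive mark H3K27me3, fell in both lines. It was at 37.60 and 48.41 TPM in NOMO-1 shALKBH5, against 88.54 and 92.46 TPM in NOMO-1 shNS, and fell by 1.07 (adjusted p = 0.013). In MOLM-13 EZH2 was at 15.72 and 9.38 TPM in shALKBH5, against 49.69 and 45.17 TPM in shNS, and fell by 1.88 (adjusted p = 0.0019). NFYB, a subunit of the CCAAT-binding factor NF-Y, fell by 1.43 in MOLM-13 (adjusted p = 0.005). RFXAP, part of the RFX complex of class I and class II promoters, fell by 1.05 there (adjusted p = 0.0066). In NOMO-1 RFXAP fell by 0.64 (adjusted p = 0.035). The NOMO-1 call of CIITA was lost without any one NOMO-1 or MOLM-13 shNS library (adjusted p 0.067 to 0.15), as was that of RFXAP (0.06 to 0.16). The NOMO-1 call of EZH2 was lost without either shNS replicate or shALKBH5 replicate 2 of NOMO-1 (0.065 to 0.088). The MOLM-13 call of RFXAP was lost without MOLM-13 shNS replicate 1 (0.055).

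**Figure D4:**
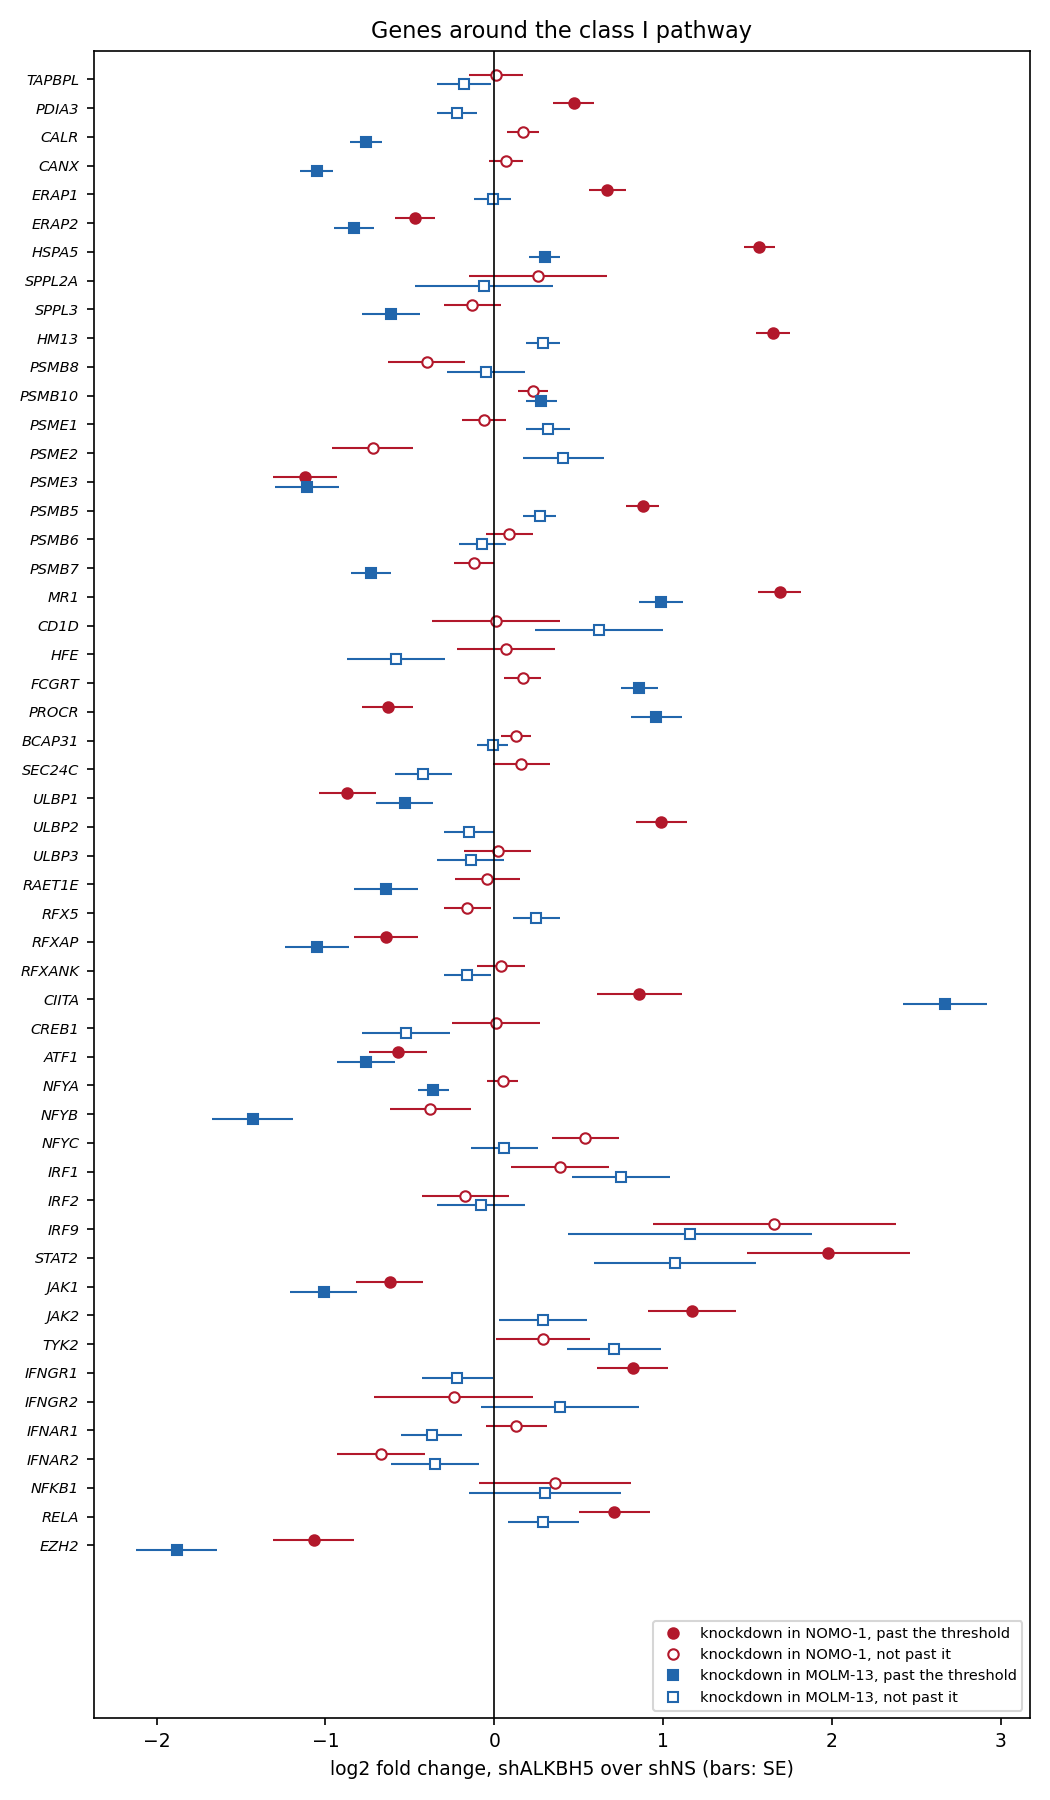
Log2 fold change (x axis; shALKBH5 over shNS; bars give the SE) of tested genes of the lists on peptide loading, proteasome, class I-like molecules, NKG2D ligands and class I transcription, in NOMO-1 (red circles) and MOLM-13 (blue squares); filled symbols passed the threshold. PSME3 and EZH2 lie to the left in both lines, MR1 and CIITA to the right in both, and CALR and CANX to the left in MOLM-13.

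Interferon-stimulated genes separated the 2 MOLM-13 shALKBH5 libraries. Of 36 listed, 29 were tested, and all 29 were above the MOLM-13 control mean in shALKBH5 replicate 1, with a median of 3.11, while 6 of 29 were above it in shALKBH5 replicate 3, with a median of -0.43. In NOMO-1 the medians were 0.13 and 0.28 in shALKBH5 replicates 2 and 3. All 5 class I pathway genes were likewise higher in MOLM-13 shALKBH5 replicate 1 than in replicate 3, and the part of this split in the class I values was not tested. In the test of the group means, 0 of 29 rose and 1 fell in NOMO-1, where 28.6% of all genes rose and 15.0% fell. With the NOMO-1 libraries alone, 7 rose and 6 fell. In MOLM-13, 1 of 29 rose and 0 fell, where 10.6% of all genes rose and 31.2% fell, and 0 passed with the MOLM-13 libraries alone. Under median-of-ratios scaling 4 rose and 0 fell there, and likewise under quantile scaling. GBP2, a guanylate-binding protein induced by interferon-gamma, was the gene that rose. It was at 27.22 and 15.90 TPM in MOLM-13 shALKBH5, against 8.04 and 7.02 TPM in MOLM-13 shNS, with a log2 fold change of 1.36 (adjusted p = 0.006). IFITM2, an antiviral membrane protein, fell by 0.65 in NOMO-1 (adjusted p = 0.016), a call that was lost without any one NOMO-1 library (adjusted p 0.062 to 0.10).

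MHC class II genes gave a reference point on the other arm of antigen presentation, with 4 of 11 listed genes tested. In NOMO-1, 2 rose and 1 fell, where 28.6% of all genes rose and 15.0% fell. In MOLM-13, 3 rose and 0 fell, where 10.6% of all genes rose and 31.2% fell, and 0 passed with the MOLM-13 libraries alone. CD74, the invariant chain, was at 207.27 and 207.47 TPM in NOMO-1 shALKBH5, against 90.18 and 96.07 TPM in NOMO-1 shNS, and rose by 1.15 (adjusted p = 0.025). In MOLM-13 it was at 905.73 and 438.18 TPM in shALKBH5, against 186.85 and 191.78 TPM in shNS, and rose by 1.73 (adjusted p = 0.0064). HLA-DMB, a chain of the class II peptide editor, rose by 1.37 in NOMO-1 (adjusted p = 0.015) and by 1.71 in MOLM-13 (adjusted p = 0.0072). HLA-DQA1, a class II chain, was at 28.42 and 2.59 TPM in MOLM-13 shALKBH5, against 0.47 and 0.17 TPM in MOLM-13 shNS. It rose by 2.97 (adjusted p = 0.036), but by 1.45 without shALKBH5 replicate 1 and by 4.49 without shALKBH5 replicate 3. HLA-DOB, a chain of the editor's inhibitor, fell by 0.80 in NOMO-1 (adjusted p = 0.027). Of these calls that of CD74 in MOLM-13 held without any one library. The others were lost without 1 or more libraries, with adjusted p of 0.051 to 0.15: HLA-DMB in MOLM-13 without shNS replicate 3, HLA-DMB in NOMO-1 without shNS replicate 3 or either shALKBH5 replicate, and the rest without any one NOMO-1 or MOLM-13 shNS library. In NOMO-1 and MOLM-13 the log2 fold change was 1.15 and 1.73 for CD74, and -0.80 and 0.22 for HLA-DOB. In the same order it was 0.20 and -0.20 for B2M, 0.28 and 0.43 for HLA-C, and 0.81 and 0.20 for HLA-E. For TAP1 it was 0.41 and 1.26, and for NLRC5 0.19 and -0.05.

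The profiles of the 5 genes over the 8 libraries were compared with those of 8803 genes whose mean reached 10 TPM, by the Euclidean distance between centred log2(TPM + 1) values. Among themselves the closest pair was HLA-E and NLRC5 at 0.921 and the farthest B2M and NLRC5 at 2.68. Nearest to the mean profile of the 5 were USB1 (0.232), CD300LF (0.238), ULK1 (0.266), ZBTB43 (0.275) and EHD4 (0.28), where the median over all genes compared was 1.6. The nearest gene to HLA-C was LAGE3 (0.222), to HLA-E DPP9 (0.165), to B2M LRRFIP2 (0.383), to TAP1 IKBKE (0.376) and to NLRC5 NXF1 (0.175). USB1 had 72.14 and 73.18 TPM in NOMO-1 shALKBH5, against 55.44 and 57.24 TPM in NOMO-1 shNS, and 43.78 and 27.57 TPM in MOLM-13 shALKBH5, against 28.30 and 30.22 TPM in MOLM-13 shNS. Every profile holds the gap between the lines and the split of the MOLM-13 shALKBH5 libraries, so these distances are a description only.

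N6-methyladenosine is laid mostly on the motif GGACT and its variants, so the motif was counted in the reference transcript of each gene. HLA-E held 1.92 per kb, more than 89.2% of 11927 tested coding genes, NLRC5 1.61, TAP1 1.35, HLA-C 0.651 and B2M 0.587, where the median gene held 0.94. A count of letters says nothing of whether a site is methylated, and no methylation was measured in these files.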

How the data were processed

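The authors deposited poly(A) RNA-seq of 8 libraries as one table of TPM per gene symbol. The submitters' processing notes name STAR, RSEM and GRCh38. Tool versions, the annotation and strandedness were not given in the sources used here. Sequencing depth cannot be read from TPM, so the depth is unknown and intervals that need it were left out. A count test had been planned for count data and was replaced by the test for TPM.

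With limma 3.58.1 (R 4.3.3), 4 group means were fitted to log2(TPM + 1) of all 8 libraries, for the 14302 genes that reached 1 TPM in 2 or more libraries. This left 4 residual degrees of freedom. The fit used limma's trended empirical Bayes variance, tests were two-sided, and p-values were adjusted by Benjamini-Hochberg over the 14302 genes, with calls at an adjusted p below 0.05. The pseudocount of 1 understates changes of low genes. Adjusted p-values are from this fit unless another setting is named. Groups came from the sample labels. Alternatives were median-of-ratios and quantile scaling, pseudocounts of 0.1 and 0.5, no filter and a filter of 5 TPM, no trend, library weights, each line alone, leaving out each library, and a block for the replicate number in MOLM-13. The fit was tested on data simulated with changes in the NOMO-1 knockdown only and the same spread per gene in all groups. That setting leaves out the wider spread of the MOLM-13 shALKBH5 libraries, so it does not show how the fit behaves there.

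The members and lists were chosen with earlier results of these data known. Named genes were the members, ALKBH5 and up to 4 genes per list and knockdown comparison with the smallest p past the threshold. CIITA, IRF1 and PSMB8 were named by role, and the nearest genes by profile. PDIA3, MPO and JAK1 were added after their values were seen. Mitochondrially encoded mRNAs were not analysed here, and a further gene of the rule is not reported here.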

Additional observations from a re-analysis of the deposited data

Results flagged for a closer look

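The knockdown effect differed between the 2 lines, in limma's test of the difference (NOMO-1 minus MOLM-13, log2, adjusted p below 0.05), for 17 of the genes named by the rule. In the list of trimming enzymes, chaperones and intramembrane proteases the difference was 1.27 for HSPA5, 1.36 for HM13 and 0.68 for ERAP1. It was 1.12 for CANX and 0.92 for CALR, and all of these were higher in NOMO-1. It was 0.61 for the proteasome subunit PSMB5 and 0.60 for PSMB7. Among class I-like molecules it was 0.70 for MR1, -1.58 for PROCR and -0.69 for FCGRT. It was 1.14 for the NKG2D ligand ULBP2, 1.04 for IFNGR1, -1.81 for CIITA and -1.02 for HLA-DOB. Among structural RNAs it was -3.89 for RN7SK, -3.00 for RPPH1 and -3.10 for SNORD3A. The differences of HSPA5, HM13, CANX, CALR, PROCR, RN7SK and RPPH1 held without any one library, and those of the other genes did not (adjusted p 0.054 to 0.14 where lost). That of ULBP2 was lost without replicate 1 of either shNS group, that of SNORD3A without any one NOMO-1 or MOLM-13 shNS library except NOMO-1 shALKBH5 replicate 2, and the rest without any one NOMO-1 or MOLM-13 shNS library. RNA5-8S5, listed at 0 in every library but the MOLM-13 shALKBH5 ones, was not counted. None of the 5 class I pathway genes was among them. The median difference of all genes was 0.42. Under median-of-ratios scaling, where that median was -0.01, the difference was 0.10 for PSMB5, 0.10 for PSMB7, 0.18 for ERAP1, 0.19 for MR1 and 0.41 for CALR, and none of these 5 passed the threshold (adjusted p 0.13 to 0.61). The other 12 passed there, with 0.76 for HSPA5, 0.85 for HM13, 0.61 for CANX, 0.72 for ULBP2, 0.53 for IFNGR1, -2.08 for PROCR, -1.20 for FCGRT, -2.35 for CIITA, -1.47 for HLA-DOB, -4.40 for RN7SK, -3.49 for RPPH1 and -3.60 for SNORD3A.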

How the results depend on the processing

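Of the 5 class I pathway genes, 1 passed the threshold in NOMO-1, 2 under quantile scaling, 3 with library weights, 4 with the NOMO-1 libraries alone and 0 to 5 without 1 library each. In MOLM-13 2 passed, 0 without a filter, 0 with library weights, 0 with the MOLM-13 libraries alone and 0 to 5 without 1 library each. For the difference between the lines 0 passed, 2 under median-of-ratios scaling, 1 under quantile scaling, 1 with library weights and 0 to 4 without 1 library each; between the controls 2 passed, 4 with weights and 2 to 4 without 1 library each. Genes past the threshold numbered 6242 in NOMO-1 (9712 with weights, 3490 to 9745 without 1 library), 5972 in MOLM-13 (2818 with weights, 1684 alone, 2665 to 9439 without 1 library), 4946 for the difference (1635 to 9661) and 8556 between controls (6480 to 11202). Signs turned under median-of-ratios scaling for B2M and NLRC5 in NOMO-1 (-0.02 each) and in MOLM-13 (0.10 and 0.23; NLRC5 0.32 under quantile scaling). They also turned there for the difference of B2M (-0.12), NLRC5 (-0.24; -0.28 under quantile scaling) and ALKBH5 (-0.33; -0.30 under quantile scaling), and for HLA-E between controls (-0.15; -0.19 under quantile scaling). Without 1 library each, the log2 fold change in MOLM-13 was -0.50 to 0.41 for NLRC5, -0.11 to 0.52 for HLA-E and -0.84 to 0.45 for B2M, and the difference was -0.31 to 0.01 for HLA-C, -0.25 to 1.04 for B2M, -0.22 to 0.69 for NLRC5 and -0.05 to 0.28 for ALKBH5. The causes were not tested. Replicate numbers 1 and 3 are in both MOLM-13 groups, and their deviations correlated at 0.131 over 8803 genes; with only 2 pairs the libraries share a number and no more, and with the replicate block 2 of the 5 genes and 6534 genes passed in MOLM-13. No paired analysis was possible in NOMO-1 because its groups share only 1 number. With 2 libraries a group the spread within a group is poorly known, and the depth is unknown.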
